A study of Homo sapiens with 4 samples.

Results

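The genes of 8 myeloid transcription factors were examined for open chromatin: SPI1, CEBPA, CEBPB, CEBPD, CEBPE, IRF8, GFI1 and KLF4. Their sites were all ATAC-seq peaks (hg19) with a midpoint within 60 kb of the gene's approximate transcription start, and a site within 1 kb of that start was counted as a promoter site and any other as a distal site. The starts, given to the nearest kb, were chr11 47.400 Mb for SPI1, chr19 33.793 Mb for CEBPA, chr20 48.807 Mb for CEBPB, chr8 48.651 Mb for CEBPD, chr14 23.589 Mb for CEBPE, chr16 85.933 Mb for IRF8, chr1 92.952 Mb for GFI1 and chr9 110.252 Mb for KLF4. This gave 152 of the 234888 peaks of the series, which merged into 68 of 103230 regions. ATAC-seq maps open chromatin with the transposase Tn5, which cuts accessible DNA and adds sequencing adapters to it. The cells were ME-1, an established human leukaemia line with inv(16), a rearrangement that fuses CBFB to MYH11. One group of 2 libraries came from cells given the solvent DMSO, and the other group of 2 from cells given 1 µM AI-10-49, a small molecule that blocks the fusion protein from binding RUNX1. Exposure was 6 h in each group, all libraries carry the inv(16) fusion, and the design text describes independent experiments.

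Blood cells of the granulocyte and monocyte lineages are specified by a small set of DNA-binding proteins. PU.1, the product of SPI1, is an ETS factor that opens enhancers of myeloid genes. C/EBP proteins are leucine zipper factors: C/EBPα starts granulocyte development, C/EBPβ serves emergency granulopoiesis and macrophages, C/EBPδ is induced by inflammation, and C/EBPε acts late, in neutrophil maturation. IRF8 and KLF4 favour monocytes, while GFI1 is a repressor that favours neutrophils. RUNX1, with its partner CBFβ, is a known regulator of SPI1 and CEBPA, and the inv(16) fusion protein is known to interfere with it.

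Each list held 48930 to 67388 peaks, of which 34 to 45 belonged to the 8 genes. The DMSO libraries are called controls below and the AI-10-49 libraries treated. The most frequent background, in reads per base, was 0.0613 and 0.060 for controls 1 and 2 but 0.0965 and 0.108 for treated libraries 1 and 2, so the same number of reads stood higher over the background in a DMSO library. For that reason reads at a peak's summit, recovered as whole numbers, are given with their height in multiples of the library's background. Regions listed in all 4 libraries also have a rank from 0 (weakest) to 100 (strongest) by the −log10 p-value that the authors' peak caller gave, taken over the same 29042 regions in every library. A region missing from a list may still have held reads, fewer than the peak caller asked for. As a check of the cell type, promoter peaks within 1 kb of approximate starts were listed in all 4 libraries at PTPRC and CD33, in 3 at CD34, in 2 at KIT and in none at MPO. These starts come from general knowledge, so a missing peak cannot be told apart from a wrong start. Among genes of other cell types, CD3E had such a peak in 1 library, and PAX5, GATA1, ALB and MYOD1 had none.

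Open sites were listed mainly at 6 of the 8 genes, and the windows of IRF8 and KLF4 were nearly empty. SPI1, CEBPA, CEBPB, CEBPE and GFI1 had 11 to 15 regions each and CEBPD had 5, whereas IRF8 and KLF4 had 1 each, listed in DMSO replicate 2 alone. In all, the windows held 45 and 35 peaks in the controls and 38 and 34 in the treated libraries, a mean of 40 ± 7.07 against 36 ± 2.83 (SD, n = 2 each). The mean was thus 10% lower, while the whole lists were 22.8% shorter, with 67388 and 65132 peaks in the controls and 48930 and 53438 in the treated libraries. The groups overlapped (two-sided exact permutation p = 0.667, where 0.333 is the smallest p that 2 against 2 libraries allow). This small deficit after AI-10-49 turned to a mean surplus of 5 peaks with −log10 q-values from 5 upward, of 8.5 with each list kept to its strongest 48930 peaks and of 7.5 with at least 5 reads at the summit. Over the genome, 1.96% of 120 kb tiles with a peak had more peaks in both AI-10-49 lists as deposited. Under these 3 filters the share was 8.99%, 8.04% and 13.1%. The tiles were fixed stretches along the genome, neither centred on genes nor matched to the windows in their number of peaks. The whole lists had median summit reads of 5 and 5 in the controls and 7 and 7 in the treated libraries. The direction of the peak difference near the 8 genes also turned without DMSO replicate 1, to 1 more peak after AI-10-49, and without DMSO replicate 2 the deficit was 9. Per Mb, the windows held 19.8 regions listed in all 4 libraries against 9.57 over the genome, a comparison of gene neighbourhoods with all sequence, for which no test was made.

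**Figure D1:**
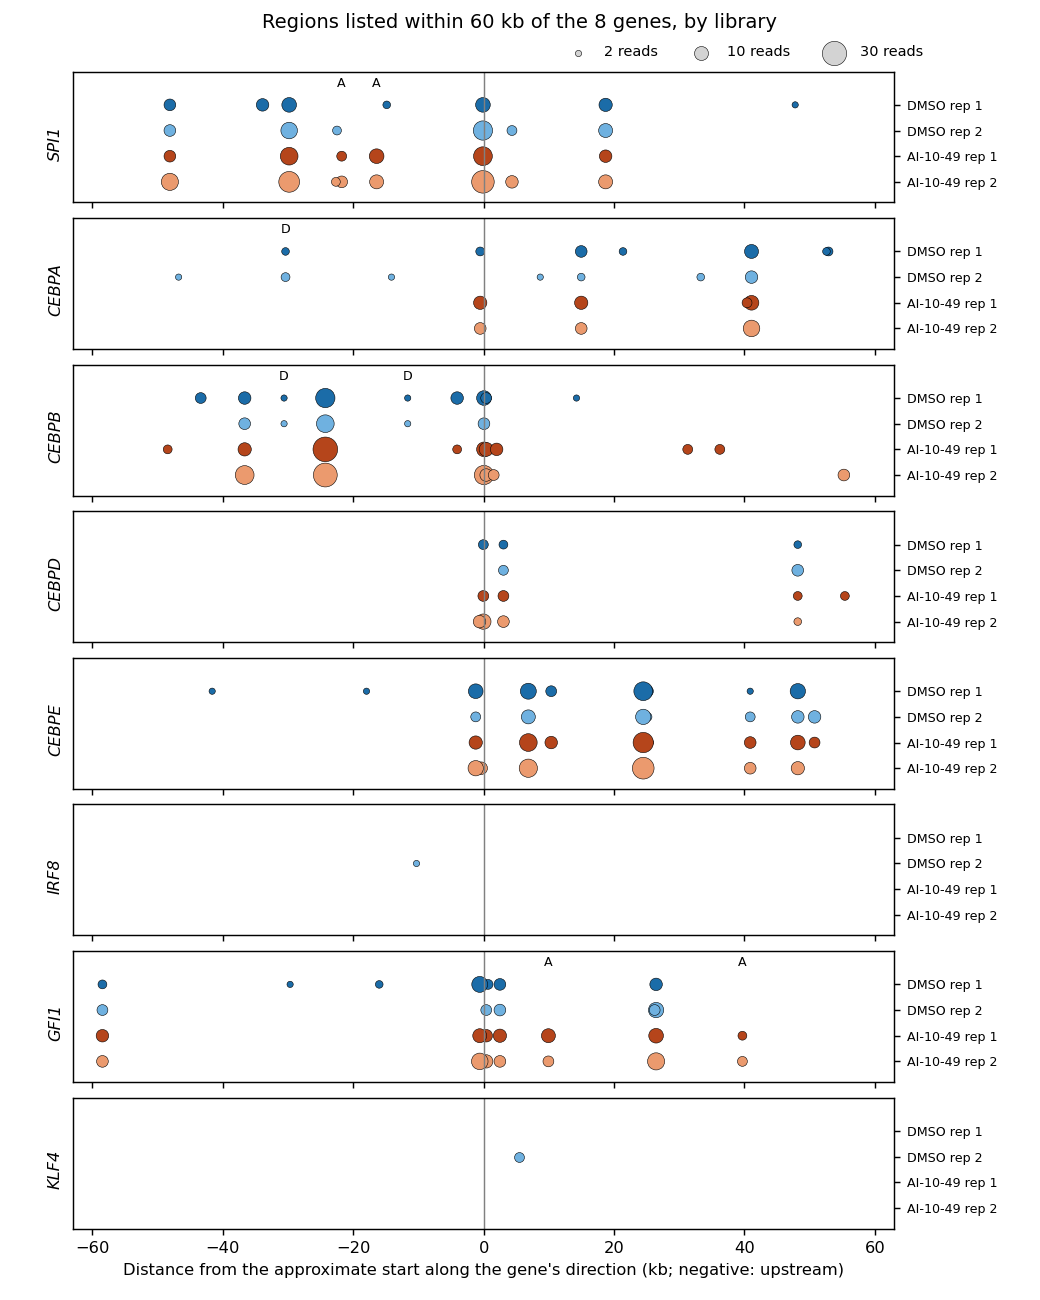
Every region listed near the 8 genes, one panel per gene, by distance in kb from the approximate start along the gene's direction (negative is upstream); each row of points is 1 library and the point's area follows the recovered reads at the summit. Letters mark regions listed in both libraries of 1 treatment and neither of the other (A for AI-10-49, D for DMSO). Points recur across the 4 rows at every gene except IRF8 and KLF4, which have 1 point each.

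Of the 68 regions, 19 were listed in all 4 libraries, which was 27.9% against 28.1% of all regions of the genome. A single library listed 32 of them, or 47.1% against 43.9%. The shared regions were the wide ones, with a median width of 306 bp against 83.5 bp for those of a single library. Over the genome these medians were 213 and 79 bp. Several summits within 1 peak were found at 7 of the 19 shared regions and at 0 of the other 49, against 21.6% and 0.241% over the genome. The AI-10-49 libraries had 28 of these regions in common out of 44 listed in either (63.6%), whereas the DMSO libraries had 23 of 53 in common (43.4%) and pairs across treatments 43.4 to 48.1%. Over the genome the same shares were 57.6% for the AI-10-49 pair, 45.5% for the DMSO pair and 46.6 to 49.9% across treatments. So the DMSO libraries differed from each other at these genes about as much as either differed from a treated library.

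**Figure D2:**
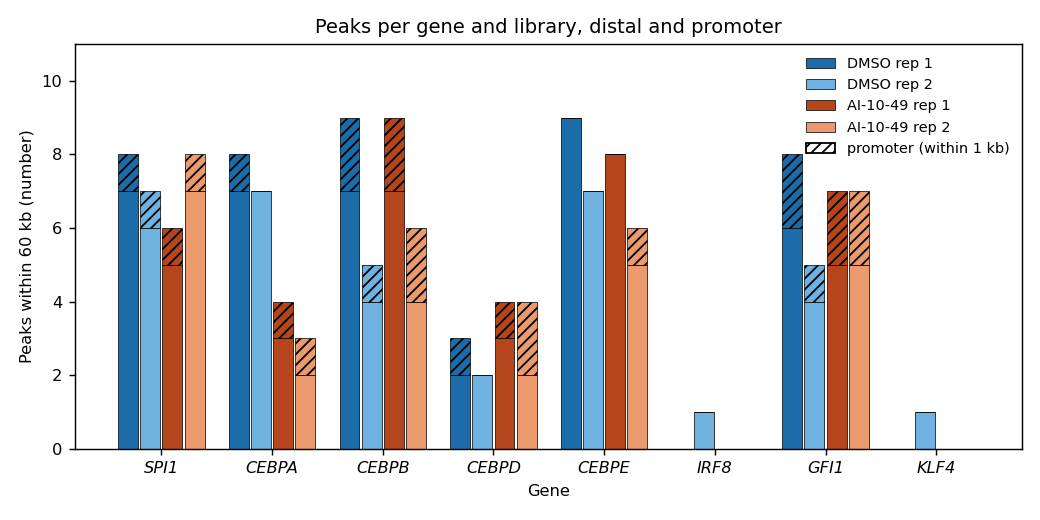
Number of peaks within 60 kb of each gene in each library, as bars from 0; the plain part of a bar is distal peaks and the hatched part is promoter peaks within 1 kb. CEBPA had 8 and 7 peaks under DMSO against 4 and 3 under AI-10-49, and CEBPD had 3 and 2 against 4 and 4.

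SPI1, the gene of PU.1, had the promoter peak with the most reads of the 8 genes in every library except DMSO replicate 1, and an upstream site listed after AI-10-49 only. The promoter region chr11:47399895-47400309 was in every list, at 11 and 19 reads for the controls and 18 and 26 for the treated libraries. These heights equalled 179.4 and 316.7 backgrounds in the controls and 186.5 and 241.6 in the treated libraries, so the treated values lay between the control ones. Its rank was 51.8 and 92.4 in DMSO libraries and 78.3 and 88.3 in AI-10-49 libraries (exact permutation p = 1). The window held 8 and 7 peaks in the controls and 6 and 8 in the treated libraries.

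The site that set the treatments apart most clearly at SPI1 was chr11:47416330-47416484, 16.4 kb upstream of the start and 155 bp wide. Neither DMSO library listed it, and the AI-10-49 libraries had 11 and 10 reads there, 114.0 and 92.9 times their background. Their fold enrichments, as the authors' peak caller gave them, were 8.73 and 7.69, and the −log10 q-values were 10.5 and 8.60. At least 10 reads in both AI-10-49 libraries were found at 67 of the 1985 regions that only those libraries listed (3.38%), where the median of the lower value was 5 reads. Scaled by the most frequent background of each library, the lower of the 2 heights equals 5.70 reads in DMSO replicate 1 and 5.58 in DMSO replicate 2. The local background of the DMSO libraries at this site is not known. The local background of this site was 0.375 reads per base in AI-10-49 replicate 1 and 0.430 in replicate 2. The lowest peaks in the DMSO lists had 3 reads at local backgrounds of 0.2 to 0.4 and 4 reads at 0.4 to 0.6. These are the lowest over each whole range, so they do not give the limit at this site. The nearest DMSO peak, chosen after its value was seen, lay 14.9 kb upstream with 3 reads in replicate 1. The region stayed AI-10-49-only with −log10 q-values from 5 upward, with the strongest 48930 peaks, with at least 5 reads and with 50% reciprocal overlap. With 2 libraries in a group the exact test of a region cannot go below 0.333, and the higher background of the AI-10-49 libraries cannot be told apart from the treatment. A RUNX1-bound upstream element of SPI1 is well known, and no annotation of hg19 was used here to place this region against it.

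Around it, SPI1 had further upstream sites. A second region listed in the AI-10-49 libraries only, chr11:47421728-47421797, lay 21.8 kb upstream with 5 and 7 reads. In contrast, chr11:47429632-47430006, 29.8 kb upstream, was the strongest shared distal site of SPI1. It had 11 and 14 reads under DMSO against 16 and 22 under AI-10-49, and ranks of 55.2 and 82.3 against 72.7 and 84.6, which overlapped. A region 48.1 kb upstream had 7 and 7 reads in DMSO libraries and 7 and 15 in AI-10-49 libraries. On the other side, 18.7 kb downstream, chr11:47381083-47381491 was the only one of the 19 shared regions whose ranks were lower in both AI-10-49 libraries. It had 9 and 10 reads with DMSO, 146.8 and 166.7 times the background, and 8 and 10 with AI-10-49, 82.9 and 92.9 times. The ranks were 42.7 and 58.9 in the controls and 29.3 and 40.5 in the treated libraries, a mean difference of -15.9 (exact permutation p = 0.333). Over the genome 18.8% of shared regions had both AI-10-49 ranks below both DMSO ranks. By RefSeq for GRCh38.p14, MADD, MYBPC3, SLC39A13, PSMC3 and RAPSN also reach into 60 kb of the SPI1 start, so distal sites there need not belong to SPI1.

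CEBPA, which has no other protein-coding gene within that distance in RefSeq, had fewer distal peaks in both AI-10-49 lists, a difference among weak peaks. Distal peaks numbered 7 and 7 under DMSO against 3 and 2 under AI-10-49, and all peaks 8 and 7 against 4 and 3 (exact permutation p = 0.333 for each). Fewer peaks in both AI-10-49 lists were found in 23.5% of 120 kb tiles of the genome that hold a peak. With at least 5 reads at the summit the window had 3 and 1 peaks in DMSO libraries and 4 and 3 in AI-10-49 libraries, so the groups overlapped and the mean was no longer lower. The one region listed in both DMSO libraries only, chr19:33823307-33823446, lay 30.4 kb upstream with 3 and 4 reads.

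The strongest distal site of CEBPA, chr19:33751586-33752239, was 654 bp wide and lay 41.1 kb downstream, the side on which a myeloid enhancer of this gene is known. It had 10 and 8 reads in the controls and 11 and 14 in the treated libraries. In multiples of the background it stood at 163.1 and 133.3 in the controls and 114.0 and 130.1 in the treated libraries, and its ranks of 50.1 and 31.2 against 42.9 and 53.8 overlapped. A second shared region, 15.0 kb downstream, had 7 and 3 reads in DMSO libraries and 9 and 7 in AI-10-49 libraries. At the promoter, chr19:33793431-33793609, DMSO replicate 1 had 4 reads, DMSO replicate 2 had no peak, and the AI-10-49 libraries had 9 and 7 reads. These heights were 65.3 times the background in DMSO replicate 1, and 93.3 and 65.1 times with AI-10-49.

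CEBPB held the site with the highest rank of the 19 shared regions in every library except DMSO replicate 2, where the SPI1 promoter ranked higher, and this site was distal. The region chr20:48782564-48782891, 24.3 kb upstream, had 19 and 16 reads in the controls and 31 and 29 in the treated libraries. Over the background this was 310.0 and 266.7 times under DMSO against 321.2 and 269.5 under AI-10-49, which overlapped. By rank, 91.5 and 90.2 in DMSO libraries and 97.2 and 93.9 in AI-10-49 libraries, the values separated by group (exact permutation p = 0.333), and 19.6% of shared regions over the genome had both AI-10-49 ranks above both DMSO ranks. Further out, 36.6 kb upstream, chr20:48770220-48770497 had 8 and 7 reads in the controls and 9 and 18 in the treated libraries. Its mean rank was 16.2 higher with AI-10-49, with ranks of 49.1 and 45.2 against 48.0 and 78.8, so the difference rested on AI-10-49 replicate 2.

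The CEBPB promoter had a peak in every library. Its region chr20:48806996-48807116 had 11 and 7 reads under DMSO against 11 and 19 under AI-10-49, which equalled 179.4 and 116.7 backgrounds against 114.0 and 176.6. Its mean rank was 14.2 higher after AI-10-49 while the groups overlapped, at 53.8 and 35.0 against 42.8 and 74.4. A second promoter region about 0.4 kb downstream had 6 reads in DMSO replicate 1, no peak in DMSO replicate 2, and 10 and 8 reads with AI-10-49. The 2 regions listed only with DMSO, chr20:48776361-48776440 and chr20:48795249-48795471, had 2 reads in each DMSO library, the lowest number in those lists, while the lowest in the AI-10-49 lists was 3. The same height over the background would be 3.15 and 3.51 reads in the AI-10-49 libraries. By RefSeq, PEDS1, its readthrough PEDS1-UBE2V1 and LOC124904927 also reach into this distance of CEBPB.

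CEBPD had few and low sites. Its promoter region chr8:48650978-48651101 had 5 reads in DMSO replicate 1, no peak in DMSO replicate 2, and 6 and 12 reads with AI-10-49. A second promoter region, chr8:48651592-48651659, had 8 reads in AI-10-49 replicate 2 alone. Peaks in the window numbered 3 and 2 in DMSO libraries and 4 and 4 in AI-10-49 libraries (exact permutation p = 0.333). Of 120 kb tiles, not matched in their number of peaks, 1.96% had more peaks in both AI-10-49 lists. With at least 5 reads at the summit the numbers were 1 and 2 against 2 and 3 and overlapped. A shared site 3.0 kb downstream had 4 and 5 reads in the controls and 6 and 7 in the treated libraries, and its ranks were all at or below 4.67. The other shared site, 48.2 kb downstream, had the most negative difference in mean rank of the 19, at -24.7. Its ranks were 5.35 and 55.6 under DMSO against 10.6 and 0.976 under AI-10-49, so this difference rested on DMSO replicate 2, which had 7 reads against 3 in DMSO replicate 1. SPIDR and PRKDC also reach into this distance by RefSeq.

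CEBPE had the most shared regions, 5 of 11, although its start itself was listed once. A promoter peak with 8 reads was found in AI-10-49 replicate 2 only. Just beyond the promoter limit, 1.2 kb upstream, chr14:23590108-23590312 had 11 and 5 reads in DMSO libraries and 9 and 12 in AI-10-49 libraries. With a limit of 2 kb CEBPE would count as a gene with a promoter site in every library. The strongest site, chr14:23564292-23564743, lay 24.5 kb downstream with 18 and 12 reads in the controls and 21 and 24 in the treated libraries. Ranks there were 84.4 and 70.4 against 83.4 and 84.3, so the control and treated values overlapped.

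Other CEBPE sites differed in rank in opposite directions. At 40.9 kb downstream, chr14:23548013-23548216 had 2 and 5 reads under DMSO against 7 and 7 under AI-10-49. Its rank difference of 24.2 was the largest positive one of the 19 (ranks of 0.262 and 35.4 against 48.2 and 35.8, exact permutation p = 0.333). DMSO replicate 1 stood apart here, and the second replicates of both groups had nearly the same rank. At 48.2 kb downstream the mean rank difference was -12.9, with 79.0 and 51.5 against 63.3 and 41.4, which overlapped. The 6.9 kb downstream site had 13 and 10 reads in DMSO libraries and 16 and 17 in AI-10-49 libraries. ACIN1, C14orf119, CIROP and SLC7A8 also reach into this distance of CEBPE by RefSeq.

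GFI1, the gene of the repressor that favours neutrophils, had more peaks in both AI-10-49 lists under each of 3 restrictions to stronger peaks. As deposited, its window held 8 and 5 peaks in the controls and 7 and 7 in the treated libraries, which overlapped. With −log10 q-values from 5 upward there were 2 and 2 against 5 and 4, with the strongest 48930 peaks of each list 5 and 5 against 7 and 7, and with at least 5 reads 4 and 5 against 6 and 7. The share of 120 kb tiles with more peaks in both AI-10-49 lists was 8.99%, 8.04% and 13.1% under these 3 settings. These tiles were not matched to the window in their number of peaks. The other genes so ordered were CEBPE at the first setting, with 4 and 5 against 6 and 6, and CEBPD at the second, with 0 and 1 against 4 and 3. Among the sites listed only with AI-10-49, chr1:92941965-92942158, 9.9 kb downstream and 194 bp wide, had 10 and 6 reads, that is 103.6 and 55.8 backgrounds. The other, chr1:92912261-92912360, 39.7 kb downstream, had 4 and 5 reads. Scaled by the most frequent background, the lower height of each pair equals 3.35 to 3.42 reads in a DMSO library at the first. At the second it equals 2.49 to 2.54, and both are close to the lowest number in the DMSO lists.

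The GFI1 promoter was covered by several narrow peaks rather than 1 wide one. The part 0.6 kb upstream, chr1:92952543-92952638, had 13 reads in DMSO replicate 1, no peak in DMSO replicate 2, and 10 and 14 reads with AI-10-49. The part 0.4 kb downstream, chr1:92951461-92951730, had no peak in DMSO replicate 1 at that place (a separate peak 0.7 kb downstream had 5 reads there), 6 reads in DMSO replicate 2, and 8 and 9 with AI-10-49. Its strongest shared distal site, 26.5 kb downstream, had 8 and 12 reads under DMSO against 11 and 15 under AI-10-49. The ranks of 31.1 and 76.9 against 51.6 and 65.7 put the treated libraries between the control ones. Shared sites 2.5 kb downstream and 58.5 kb upstream had 4 to 7 reads with DMSO and 7 to 9 with AI-10-49. EVI5 also reaches into this distance by RefSeq.

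IRF8 and KLF4, both factors of the monocyte branch, showed no promoter peak in any library. The one IRF8 peak lay 10.4 kb upstream with 2 reads in DMSO replicate 2, the lowest number that list holds. The one KLF4 peak lay 5.4 kb downstream with 5 reads in the same library. Neither gene has another protein-coding gene within 60 kb in RefSeq. At this depth, sites lower than the limit of the lists were not detectable, so these values do not show that the chromatin was closed.

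Promoters set the 8 genes in order. SPI1, CEBPB and GFI1 had a promoter peak in all 4 libraries, CEBPA and CEBPD in 3, CEBPE in 1, and IRF8 and KLF4 in 0. Unlike SPI1 and CEBPB, GFI1 had no single promoter region in all 4 lists. Its region 0.6 kb upstream was missing from DMSO replicate 2 and that 0.4 kb downstream from DMSO replicate 1. By library, 5 and 3 genes had a promoter peak with DMSO and 5 and 6 with AI-10-49. Promoter peaks numbered 7 and 3 in DMSO libraries and 7 and 9 in AI-10-49 libraries, a mean of 5 ± 2.83 against 8 ± 1.41 (SD, n = 2 each, exact permutation p = 0.667). These promoter numbers have no count over all promoters of the genome beside them. Distal peaks numbered 38 and 32 against 31 and 25, a mean of 35 ± 4.24 against 28 ± 4.24 (exact permutation p = 0.333), which is 20% fewer and close to the 22.8% by which the whole lists were shorter. DMSO replicate 2 lacked the promoter peaks of CEBPA and CEBPD, which the other 3 libraries listed. It also lacked the second CEBPB promoter region and the GFI1 one 0.6 kb upstream, again listed by the other 3. The first replicate of each group had 7 promoter peaks, so the difference of means rested on the second replicates.

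**Figure D3:**
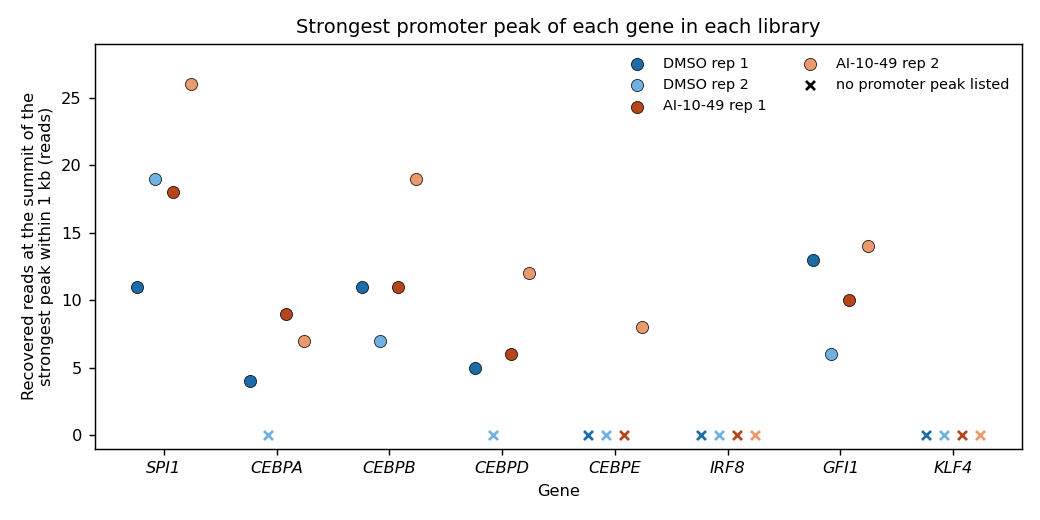
Recovered reads at the summit of the strongest peak within 1 kb of each gene's approximate start, 1 point per library, with a cross at 0 where no peak was listed. SPI1 had 11 to 26 reads, CEBPB 7 to 19 and GFI1 6 to 14, and IRF8 and KLF4 had crosses only. The GFI1 point of DMSO replicate 2, at 6 reads, is from a site 0.4 kb downstream. The other GFI1 points are from a site 0.6 kb upstream.

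The promoter sequences differ widely in base composition. RefSeq (GRCh38.p14) promoter entries matched 6 of the 8 genes, and for 5 of them an entry begins at the outer end of the gene. The 250 bases before the start are given for these, 5′ to 3′ on the gene's strand, to set promoters with peaks (CEBPA, CEBPB and GFI1) beside those with 1 or 0 (CEBPE and KLF4). They lie at chr19:33302535-33302784 (minus strand), chr20:50190333-50190582 (plus), chr1:92486926-92487175 (minus), chr14:23119256-23119505 (minus) and chr9:107489770-107490019 (minus) in that build. Peaks are on hg19, so none was placed on these bases. Capitals mark matches to a motif.
CEBPA: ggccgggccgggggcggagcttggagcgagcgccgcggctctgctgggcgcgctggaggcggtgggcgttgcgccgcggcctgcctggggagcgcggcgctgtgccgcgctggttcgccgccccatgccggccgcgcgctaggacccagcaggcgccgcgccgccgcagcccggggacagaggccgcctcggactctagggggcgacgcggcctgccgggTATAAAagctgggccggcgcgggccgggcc
CEBPB: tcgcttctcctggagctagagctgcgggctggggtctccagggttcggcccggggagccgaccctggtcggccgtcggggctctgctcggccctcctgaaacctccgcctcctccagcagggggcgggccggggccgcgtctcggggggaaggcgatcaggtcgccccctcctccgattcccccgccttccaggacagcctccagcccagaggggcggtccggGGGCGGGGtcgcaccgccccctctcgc
GFI1: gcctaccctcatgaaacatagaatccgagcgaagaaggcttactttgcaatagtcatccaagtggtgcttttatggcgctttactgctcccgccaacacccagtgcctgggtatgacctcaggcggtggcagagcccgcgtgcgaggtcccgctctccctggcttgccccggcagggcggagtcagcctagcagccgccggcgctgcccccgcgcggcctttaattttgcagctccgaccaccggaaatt
CEBPE: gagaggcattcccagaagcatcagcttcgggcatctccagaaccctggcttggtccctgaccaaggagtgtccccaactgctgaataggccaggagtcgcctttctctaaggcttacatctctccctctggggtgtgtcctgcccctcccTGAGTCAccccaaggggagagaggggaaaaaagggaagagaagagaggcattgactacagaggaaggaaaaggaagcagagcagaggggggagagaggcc
KLF4: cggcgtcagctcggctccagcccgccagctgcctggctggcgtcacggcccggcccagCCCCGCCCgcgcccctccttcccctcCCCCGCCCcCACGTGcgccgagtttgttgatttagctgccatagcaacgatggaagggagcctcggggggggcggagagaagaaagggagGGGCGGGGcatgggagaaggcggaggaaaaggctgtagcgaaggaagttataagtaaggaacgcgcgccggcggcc

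The CEBPA promoter had 81.2% G and C with 41 CG pairs, CEBPB 75.6% with 25, KLF4 69.2% with 25, GFI1 61.2% with 19 and CEBPE 57.2% with 2. Over 35116 RefSeq promoters the medians were 58% and 11. KLF4, without a peak, thus had as many CG pairs as CEBPB, with a peak in every library. A set of 11 motifs was searched on both strands, and each match is a description of letters only. The TATA box TATAAA was found in CEBPA, 30 bases before the start, and in 10.7% of all promoters. The SP/KLF box GGGCGGGG was found 1 time in CEBPB and 3 times in KLF4, and in 21.8% of promoters. KLF4 also held the E-box CACGTG (6.34% of promoters), which lies beside its SP/KLF matches without overlap, and CEBPE held the AP-1 motif TGANTCA (6.57%). None of the 5 held TGTGGT (RUNX, 10.98%), GAGGAAGT (PU.1, 2.17%), CCGGAAGT (ETS, 3.42%), TTGCNNAA (C/EBP, 9.05%), its palindromic form TTGCGCAA (0.131%, every match of which is also a match of TTGCNNAA), CCAAT (32.0%) or the GFI1 motif (0.157%).

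At the 19 shared regions the ranks of the groups overlapped in most cases. The median rank of these regions was 49.1 and 51.5 in the controls and 46.8 and 53.8 in the treated libraries, a mean of 50.3 ± 1.69 against 50.3 ± 4.93 (SD, n = 2 each, exact permutation p = 1). With the regions that stay shared under stricter lists the treated mean was higher, by 12.8 with −log10 q-values from 5 upward, by 7.48 with the strongest 48930 peaks and by 7.69 with at least 5 reads. Region by region, the ranks of the groups did not overlap at 4 of 19: 1 was lower with AI-10-49 (SPI1, 18.7 kb downstream, against 18.8% over the genome) and 3 were higher (CEBPB 24.3 kb upstream, CEBPD 3.0 kb downstream and CEBPE 40.9 kb downstream, against 19.6%). These counts lie near or below the background. The mean rank was higher with AI-10-49 at 16 of 19, where 49.8% of shared regions over the genome were higher. This count was chosen after the data were seen, and it fell to 11 without DMSO replicate 1 and to 13, 14 and 13 without DMSO replicate 2, AI-10-49 replicate 1 and AI-10-49 replicate 2. The median rank difference of the 19 regions was 6.46, and its median without regard to sign was 8.81. Single libraries of 1 group differed at these regions by a median of 18.9 for DMSO and 11.2 for AI-10-49, gaps between single values that cannot be set directly against a difference of means.

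**Figure D4:**
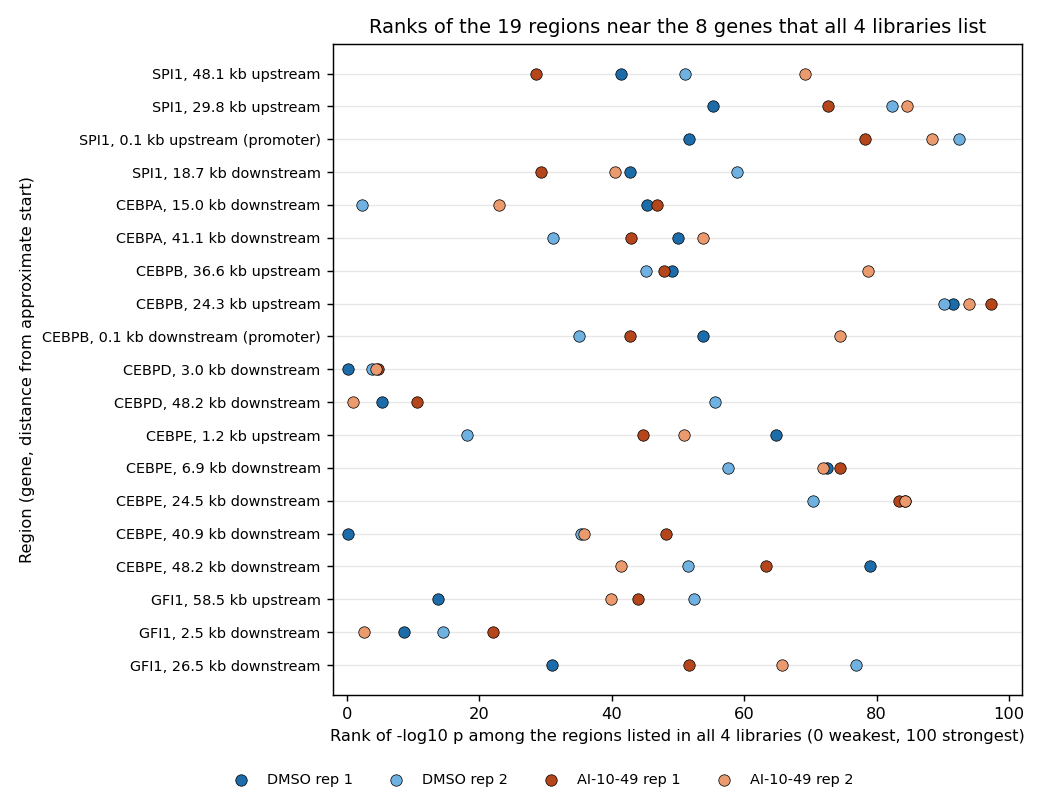
Ranks of the 19 regions near the 8 genes that all 4 libraries list, 1 point per library, from 0 (weakest) to 100 (strongest) among the 29042 such regions of the genome; regions are ordered by gene and by position along it. At SPI1 18.7 kb downstream both AI-10-49 points lie left of both DMSO points, and at CEBPD 48.2 kb downstream DMSO replicate 2 stands alone at 55.6.

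Regions listed in both libraries of 1 treatment and in neither of the other were few and fell on different genes. Those listed with DMSO only were 3 of the 23 that the DMSO lists had in common (13.0%, against 11.8% over the genome), 1 at CEBPA and 2 at CEBPB, with 2 to 4 reads. Those listed with AI-10-49 only were 4 of the 28 that the AI-10-49 lists had in common (14.3%, against 5.36%), 2 at SPI1 and 2 at GFI1, with 4 to 11 reads. With −log10 q-values from 5 upward the DMSO-only number was 0 of 12 (6.4% over the genome) and the AI-10-49-only number 1 of 18 (9.98%), the SPI1 site 16.4 kb upstream. With the strongest 48930 peaks of every list they were 1 of 16 (7.59%) and 7 of 27 (25.9%, against 8.47%). With at least 5 reads they were 0 of 14 (4.17%) and 4 of 26 (15.4%, against 10.4%). Leaving out a library asks less of a region. The DMSO-only number was then 11 without DMSO replicate 1 and 16 without DMSO replicate 2, and the AI-10-49-only number 8, 9 and 10 without DMSO replicate 1, AI-10-49 replicate 1 and AI-10-49 replicate 2. These counts describe lists, were not tested, and rest on 7 regions as deposited.

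Another 7 genes of myeloid transcription factors, placed by approximate hg19 starts from general knowledge, were set beside these. A promoter peak was listed in all 4 libraries at CEBPG and IRF1, in the AI-10-49 libraries alone at KLF2 (8 and 8 reads) and GFI1B (3 and 5 reads), and in no library at EGR2, IRF4 and MEF2C, where a wrong start cannot be told apart from a missing peak. IRF1, an interferon response factor, had the stronger of the peaks listed throughout, with 12 and 15 reads under DMSO against 16 and 25 under AI-10-49. The windows of the 7 genes held 70 regions, of which 21 were shared (30%, against 28.1% over the genome). Windows of these genes may overlap those of the 8 genes, so a region can count in both lists. Regions listed with DMSO only were 2 of 30 (11.8% over the genome). With AI-10-49 only they were 4 of 27, which were 2 at GFI1B and 2 at KLF2. This share was 4 of 28 at the 8 genes and 5.36% over the genome. At the blood and progenitor markers named above it was 6 of 33, and at the genes of other cell types 1 of 12. The mean rank was higher with AI-10-49 at 11 of the 21 shared regions of the 7 genes, against 49.8% over the genome. At the 8 genes above it was 16 of 19, at the blood and progenitor markers 13 of 24 and at the genes of other cell types 6 of 10. These differences were not tested.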

How the data were processed

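ATAC-seq peaks of 4 ME-1 libraries, 2 with DMSO and 2 with AI-10-49, were analysed from the peak list deposited for each library, on build hg19. The submitters' processing notes give, with no roles, MACS2 2.1.0, Bowtie2, cutadapt 1.3, Picard 1.96 and deepTools. How peaks were called, and from how many reads, is not given in the sources used here. Beside an integer score, which was set aside, the deposited lists hold a fold enrichment, a −log10 p-value and a −log10 q-value per peak from the authors' peak caller, which served only to describe, rank and filter peaks. The other values in these files, among the deposited columns, were summit positions, also not used.

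Only chromosomes 1 to 22 and X entered, and rows sharing coordinates were collapsed to the highest −log10 p-value. Summit reads and the local background were solved, assuming Poisson counts and 1 pseudocount in the fold, from the fold and p-value of each peak (tolerance 0.001 in the −log10 p-value). Whole numbers came out for 99.99% of peaks, and the step was tested on simulated data. Peaks overlapping by at least 1 bp were merged into regions. Windows, genes and lists were chosen with earlier results of these data known. Some genes of the added lists are not reported here. Strands of SPI1 and CEBPD came from general knowledge. Named were all 8 genes, each promoter peak, the strongest shared distal region of each gene, all regions of 1 treatment only, and the 3 largest rank falls and rises. The test of group values was the exact permutation test, two-sided, over libraries, and p-values reflect these 4 libraries only. Python 3.11.15, scipy 1.17.1 and pandas 2.3.3 were used.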

Additional observations from a re-analysis of the deposited data

How the results depend on the processing

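The peak number near the 8 genes, 4 lower on average with AI-10-49, turned to 5 higher with −log10 q-values from 5 upward, 8.5 higher with the strongest 48930 peaks and 7.5 higher with at least 5 reads. It ranged from -9 to 1 when a library was left out. Over the genome, 1.96% of 120 kb tiles had more peaks in both AI-10-49 lists as deposited. With these 3 filters the share was 8.99%, 8.04% and 13.1%. The cause of these turns was not tested. Of the 19 regions shared by all libraries, 12 were left with −log10 q-values from 5 upward and 12 with a 30 kb window, which hold fewer peaks by construction. They numbered 19 to 23 without a library. DMSO-only regions (3) numbered 0 with −log10 q-values from 5 upward, 1 with the strongest 48930 peaks, 0 with at least 5 reads, 1 with a 30 kb window and 3 to 16 without a library. AI-10-49-only regions (4) numbered 1 with −log10 q-values from 5 upward, 7 with the strongest 48930 peaks, 7 with a 100 kb window and 5 to 10 without a library. Leaving out a library relaxes what a region must meet. The difference in median rank (0.0095) was not stable: it was 12.8 with −log10 q-values from 5 upward, 7.48 with the strongest 48930 peaks, 7.69 with at least 5 reads, 7.05 with 50% reciprocal overlap and 3.52 with a 30 kb window, and -3.05 to 3.94 without a library. No pairing by replicate number was visible in the ranks, as the deviations of same-numbered libraries had a correlation of 0.00545 across shared regions. Whether these libraries were prepared in pairs cannot be told from this value. With the replicate number as a block, the peak difference was -4 (exact sign-flip p = 0.5) and the rank difference 0.0095 (p = 1). With 2 pairs this test cannot go below 0.5, so it could change no call. The 3 genes with a promoter peak in all libraries became 2 within 500 bp and 4 within 2 kb. Of settings chosen after seeing the data, counting every summit row gave a peak difference of -0.5, leaving out IRF8 and KLF4 gave -3, and leaving out promoter sites gave a rank difference of 0.44. Total reads were unknown, so depth was judged by the background alone.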
